A study of Mus musculus with 23 samples.

Results

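The genes described here are those of cholesterol synthesis and of the SREBP2 pathway that controls it, measured in scrapings of the small intestine of mice. They comprise 27 genes named for their function, with earlier results of these data known. These are 8 enzymes of the mevalonate and isoprenoid steps and 12 enzymes from squalene to cholesterol. The others are 4 regulators of the SREBP2 pathway (Srebf2 itself, Scap, Insig1 and Insig2) and 3 genes linked to SREBP2 or to sterol handling. All 27 were measured, among 21477 genes on the array with signal above background. The 11 HF-Q mice ate a high-fat diet that contained 0.33% quercetin by weight for 12 weeks, and the 12 HF mice ate the same high-fat diet without it. Quercetin is a plant flavonol present in onions and apples. All 23 were adult male C57BL/6J animals, for which the labels name no genetic modification, fed a normal-fat diet for the 3 weeks before and fasted briefly before they were killed. A further quercetin-fed animal fell ill and was left out by the authors. The title of the series poses the question of genotoxicity, and the diet contrast within cholesterol synthesis is 1 reading of the same arrays.

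Cholesterol is built from acetyl-CoA through mevalonate, isoprenoid diphosphates, squalene and lanosterol. The transcription factor SREBP2, encoded by Srebf2, is held in the endoplasmic reticulum by its escort SCAP and the retention proteins INSIG when membranes hold enough sterol. When sterol is scarce it moves to the Golgi, is cleaved, and activates most genes of the pathway, and the small intestine is one of the organs in which the pathway is active.

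RNA of each mouse, labelled with Cy5, was hybridised on a 2-colour Agilent array of its own together with a Cy3-labelled mixture of RNA from all mice, without dye swaps. Every level below is therefore log2(Cy5/Cy3), the mouse over the pool, and every fold change is the difference in log2 between HF-Q and HF. The arrays lay on 3 slides with both diets on each: 4, 3 and 4 HF-Q mice and 4 HF mice per slide. One protocol label names liver as the source of the RNA, against the other labels. All 10 enterocyte markers were measured, whereas 3 of the 7 hepatocyte markers (Ahsg, Fgb and Hpx) were not measured above background. Of the other 4, Apoh, Serpina1a and Tat were above background on all 23 arrays and Alb on 11. These calls rest on the Cy5 signal of each array. Ratios to a pool of the same mice do not bear on that label, and the tissue of origin was not tested. For each of the 27 genes the probe used was above background on all 23 arrays, and none was saturated in Cy5. A scraping holds many cell types, so fewer cells of a type and less RNA per cell cannot be told apart. The labels do not say whether mice shared a cage, and the number of mice limits the precision.

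Promoter sequences are shown for the 3 genes whose levels followed the other 26 most closely over the mice and that have an entry in the RefSeq promoter table (Hsd17b7, Lss and Cyp51), and for Hmgcs1, the enzyme used as the anchor for co-variation. Each is the 250 bases before the annotated start, written 5′ to 3′ on the strand of the gene, in build GRCm38.p6. Capitals mark matches to TCACNNCAC, a loose form of the sterol regulatory element bound by SREBP, and to CCAAT, the core of the site for the cofactor NF-Y, which reads ATTGG on the opposite strand. The windows are chr1:169969206-169969455 on the minus strand for Hsd17b7, chr10:76531355-76531604 on the plus strand for Lss, chr5:4104698-4104947 on the minus strand for Cyp51 and chr13:119690101-119690350 on the plus strand for Hmgcs1.
Hsd17b7: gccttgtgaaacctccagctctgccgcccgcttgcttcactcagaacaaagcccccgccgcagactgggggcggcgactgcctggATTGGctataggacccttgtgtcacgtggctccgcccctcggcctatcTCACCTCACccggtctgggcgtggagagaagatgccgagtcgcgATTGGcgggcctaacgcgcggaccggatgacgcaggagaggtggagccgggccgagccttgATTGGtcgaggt
Lss: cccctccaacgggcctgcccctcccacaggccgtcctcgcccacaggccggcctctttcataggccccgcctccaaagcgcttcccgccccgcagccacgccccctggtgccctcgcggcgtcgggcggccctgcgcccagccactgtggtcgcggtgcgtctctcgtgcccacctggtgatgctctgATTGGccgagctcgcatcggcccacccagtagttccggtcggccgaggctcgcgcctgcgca
Cyp51: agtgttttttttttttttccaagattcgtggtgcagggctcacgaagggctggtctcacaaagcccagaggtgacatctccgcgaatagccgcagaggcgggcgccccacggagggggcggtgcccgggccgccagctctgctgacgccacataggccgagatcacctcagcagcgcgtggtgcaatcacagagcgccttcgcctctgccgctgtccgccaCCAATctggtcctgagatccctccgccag
Hmgcs1: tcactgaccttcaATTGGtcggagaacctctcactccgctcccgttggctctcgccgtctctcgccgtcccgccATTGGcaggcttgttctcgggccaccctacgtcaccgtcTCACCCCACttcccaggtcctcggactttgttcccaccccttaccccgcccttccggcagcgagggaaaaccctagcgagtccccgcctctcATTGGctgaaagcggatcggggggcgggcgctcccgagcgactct

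The TCACNNCAC match began 117 bases before the start in Hsd17b7 and 137 bases before it in Hmgcs1. Both of these windows held 3 CCAAT boxes. The Lss and Cyp51 windows held 1 CCAAT box each, which began 62 and 29 bases before the start, and no TCACNNCAC. In the 4 windows no match to one motif overlapped a match to the other. The 23 genes with an entry had 29 such windows, and a gene was counted if any of its windows held the motif. Over both strands, CCAAT stood in 21 of the 23 (91.3%), against 37.5% of all 27025 genes in the table. Counted by window it stood in 21 of 29, against 33.8% of all windows. TCACNNCAC stood in 4 of the 23 (17.4%: Dhcr7, Hmgcs1, Hsd17b7 and Msmo1), against 3.63% of all genes. By window it stood in 4 of 29, against 3.11%. A stricter form, TCACNCCAC, every match of which is also a match of the loose one, stood in Hmgcs1 alone (1 of 23, 4.35%), against 1.22%. Fdft1, Fdps, Sqle and Stard4 had no entry. The loose motif was chosen after the sequences were seen, and a match describes the letters and does not show binding.

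None of the 27 genes differed between HF-Q and HF mice past an adjusted p of 0.05 by limma with Benjamini-Hochberg adjustment over all 21477 genes. The smallest adjusted p among them was 0.951, and across the whole array the test called 0 genes (0%). At an unadjusted p under 0.05, 452 of all genes were higher (2.1%) and 520 were lower (2.42%), 972 in all (4.53%). Of the 27, 1 had an unadjusted p under 0.05 (Fdft1, higher), a share near that background, and it is not read as a result. By direction alone, 21 of the 27 had a higher mean in HF-Q mice and 6 a lower one. Their median log2 fold change was 0.11, against -0.0038 over all genes, 48.1% of which were higher. The 95% interval of the fold change lay within 1.5-fold in either direction for 26 of the 27, the exception being Sqle. Because these genes moved together over the mice, as described below for their correlations, their directions are not independent of each other.

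**Figure D1:**
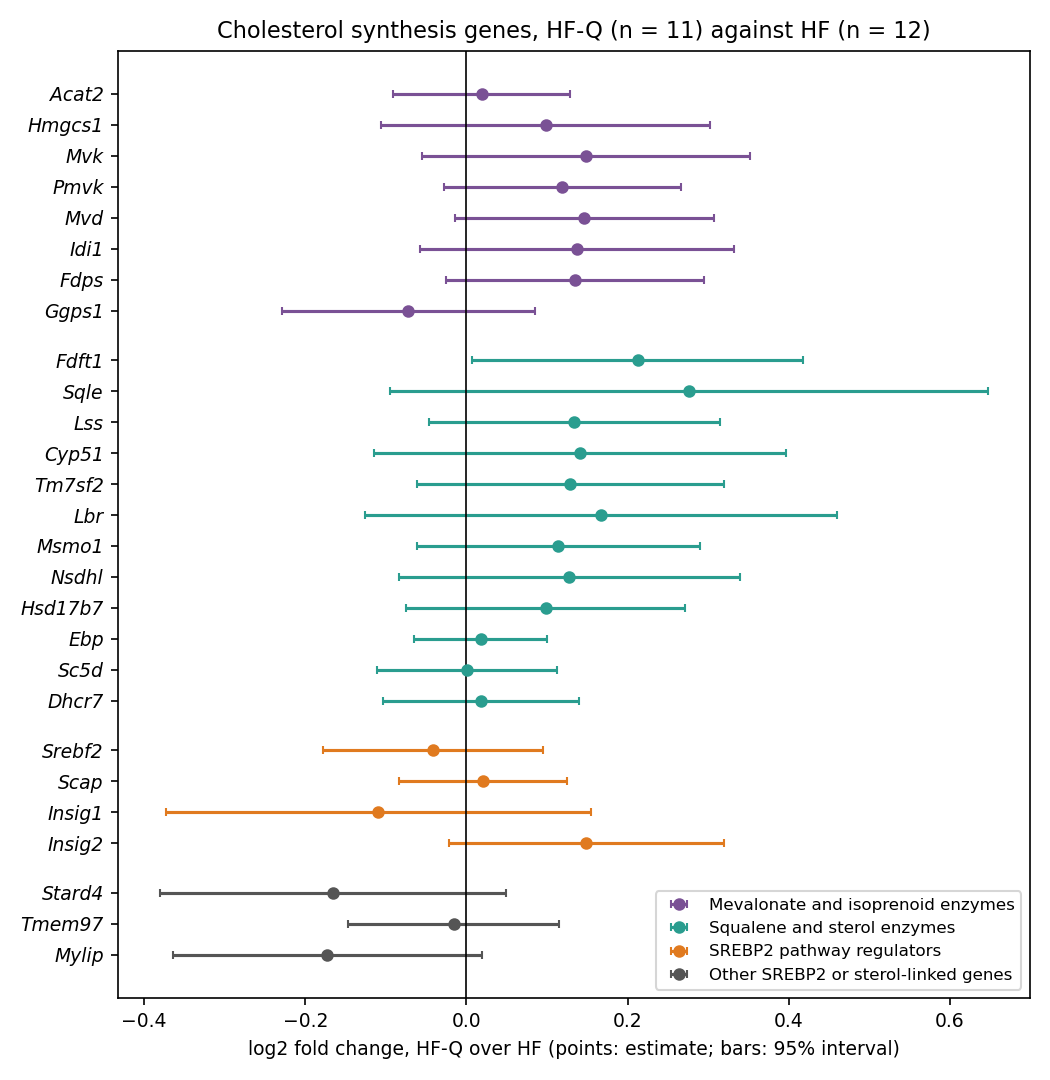
Log2 fold change of each of the 27 genes, HF-Q over HF (x axis), with genes by role down the y axis. Points are the limma estimate and bars its 95% interval. The 12 squalene and sterol enzymes all lie at or right of 0, from 0.000663 for Sc5d to 0.28 for Sqle, and the interval of Fdft1 alone leaves out 0.

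Among the mevalonate and isoprenoid enzymes, 7 of 8 had a higher mean in HF-Q mice and none passed the test, with a median log2 fold change of 0.13. Hmgcs1, the HMG-CoA synthase (probe at mm9 chr13_random:114793-114852), ranged from -0.32 through a median of 0.05 to 0.40 in HF-Q mice, against -0.57, -0.09 and 0.31 in HF mice. Its log2 fold change was 0.10 ± 0.10 (SE), with means of -0.02 ± 0.21 in HF-Q and -0.12 ± 0.28 in HF (SD, n = 11 and 12). The 2 diets overlapped over most of their range. Mvd, the mevalonate diphosphate decarboxylase (chr8:124957750-124957809), ran from -0.21 through 0.01 to 0.39 in HF-Q mice, against -0.33, -0.07 and 0.34 in HF mice. Its fold change was 0.15 ± 0.08 with an unadjusted limma p of 0.0723. Its lowest mouse was an HF mouse and its highest an HF-Q mouse, with overlap between them. Fdps, the farnesyl diphosphate synthase (chr3:88897549-88897608), ran from -0.51 through -0.19 to 0.11 in HF-Q mice, against -0.53, -0.30 and 0.11 in HF mice. Its fold change was 0.13 ± 0.08 (unadjusted limma p = 0.0964), and the 2 diets spanned almost the same range. The kinases Mvk and Pmvk and the isomerase Idi1 had fold changes of 0.15, 0.12 and 0.14. Acat2, the thiolase that opens the pathway, had 0.02. Ggps1, which makes geranylgeranyl diphosphate and so serves the branch away from sterols, was the exception in direction at -0.07 ± 0.08. Its other 2 probes gave -0.00998 ± 0.05 and -0.15 ± 0.06 (unadjusted limma p = 0.855 and 0.021).

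All 12 enzymes from squalene onward had a higher mean in HF-Q mice, with a median log2 fold change of 0.13, and none passed the test. Fdft1, the squalene synthase that commits farnesyl diphosphate to sterols (chr14:63765750-63769990), ranged from -0.28 through 0.12 to 0.55 in HF-Q mice, against -0.46, -0.19 and 0.42 in HF mice. Its log2 fold change was 0.21 ± 0.10 (SE), with a 95% interval of 0.00717 to 0.42, an unadjusted limma p of 0.0431 and an adjusted p of 0.951. The ranges overlapped, although 9 of the 11 HF-Q mice exceeded the median HF mouse. Within slides 1, 2 and 3 the Fdft1 difference was 0.21, 0.34 and 0.12, and with slide as a block it was 0.22. Sqle, the squalene epoxidase (chr15:59162688-59162747), ran from -0.68 through 0.03 to 0.55 in HF-Q mice, against -1.16, -0.32 and 0.44 in HF mice. Its fold change of 0.28 ± 0.18 was the largest of the 27, and its interval of -0.09 to 0.65 was the widest. The HF mice reached lower than any HF-Q mouse, and the upper parts of the 2 diets overlapped. Lss, the lanosterol synthase, and Cyp51, the lanosterol demethylase, had fold changes of 0.13 ± 0.09 and 0.14 ± 0.12. The remaining steps ran from 0.17 for Lbr and 0.13 for Tm7sf2, both sterol reductases, and 0.13 for the dehydrogenase Nsdhl, through 0.11 for the oxidase Msmo1 and 0.10 for the ketoreductase Hsd17b7. They ended at 0.02 for the isomerase Ebp, 0.02 for the reductase Dhcr7 and 0.000663 for the desaturase Sc5d, all 3 with small errors (0.04 to 0.06). Of the 2 Lbr probes, 1 gave the opposite sign (-0.02 ± 0.11), and the second Nsdhl probe gave 0.01 ± 0.08.

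The spread within a diet exceeded the difference between diets in these later steps too. Cyp51 ran from -0.26 through 0.11 to 0.71 in HF-Q mice, against -0.60, 0.03 and 0.39 in HF mice, and the mouse with the highest value was HF-Q replicate 9. Lbr, whose product also anchors chromatin at the nuclear envelope, ran from -0.53 through 0.24 to 0.52 in HF-Q mice, against -0.77, 0.07 and 0.41 in HF mice. Lss ran from -0.24 through 0.09 to 0.35 in HF-Q mice, against -0.42, -0.08 and 0.44 in HF mice. In both Cyp51 and Lbr the lowest mouse was in HF and the highest in HF-Q, whereas in Lss both ends were HF mice. Nsdhl ran from -0.17 through 0.11 to 0.60 in HF-Q mice, against -0.50, 0.07 and 0.44 in HF mice. Msmo1 ran from -0.38 through -0.10 to 0.23 in HF-Q mice, against -0.48, -0.25 and 0.36 in HF mice, and 10 of the 11 HF-Q mice exceeded the median HF mouse. Ebp, by contrast, kept within -0.11 to 0.20 in HF-Q mice, against -0.12 to 0.12 in HF mice. Over all 27 genes, 4 changed sign in slide 1 alone, 6 in slide 2 alone and 5 in slide 3 alone.

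The regulators did not share one direction: 2 of 4 had a higher mean in HF-Q mice, with a median log2 fold change of -0.01. Srebf2 itself (chr15:82034765-82034824) ran from -0.27 through -0.04 to 0.15 in HF-Q mice, against -0.27, -0.03 and 0.31 in HF mice. Its fold change was -0.04 ± 0.07 (SE), and its other probe gave 0.04. The diets overlapped, and the highest values were those of HF mice. Scap had 0.02 ± 0.05. Insig1, which retains SCAP in the endoplasmic reticulum and is itself an SREBP target (chr5:28404246-28404305), ran from -0.49 through -0.17 to 0.33 in HF-Q mice, against -0.56, -0.15 and 0.66 in HF mice. Its fold change was -0.11 ± 0.13, and the HF mice held both the lowest and the highest value. Insig2, its close relative that is less dependent on SREBP (chr1:123201085-123201144), ran from -0.00673 through 0.36 to 0.68 in HF-Q mice, against -0.09, 0.16 and 0.50 in HF mice. Its fold change was 0.15 ± 0.08 (unadjusted limma p = 0.0845), with overlap in the middle of the range. Its second probe gave 0.05 ± 0.14 and correlated with the one used at r = 0.40 over the mice. Insig1 and Insig2 thus had estimates of opposite sign, and neither differed from 0 by the test.

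The 3 remaining genes all had a lower mean in HF-Q mice, and none passed the test. Stard4, a carrier of cholesterol between membranes, ran from -0.45 through -0.10 to 0.34 in HF-Q mice, against -0.48, 0.07 and 0.64 in HF mice. Its log2 fold change was -0.17 ± 0.10 (SE), the ranges overlapped, and its second probe gave 0.0019. Mylip encodes a ubiquitin ligase that leads lipoprotein receptors to breakdown, and is known as a target of the sterol sensor LXR rather than of SREBP2 (chr13:45506979-45507038). It ran from -0.57 through -0.05 to 0.16 in HF-Q mice, against -0.30, 0.02 and 0.69 in HF mice. Its fold change was -0.17 ± 0.09 (unadjusted limma p = 0.0752), and 8 of the 11 HF-Q mice were under the median HF mouse. By slide the Mylip difference was -0.10, -0.03 and -0.40, largest on slide 3. Tmem97, an endoplasmic reticulum protein that responds to sterol, had -0.02 ± 0.06, and its second probe gave 0.02.

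**Figure D2:**
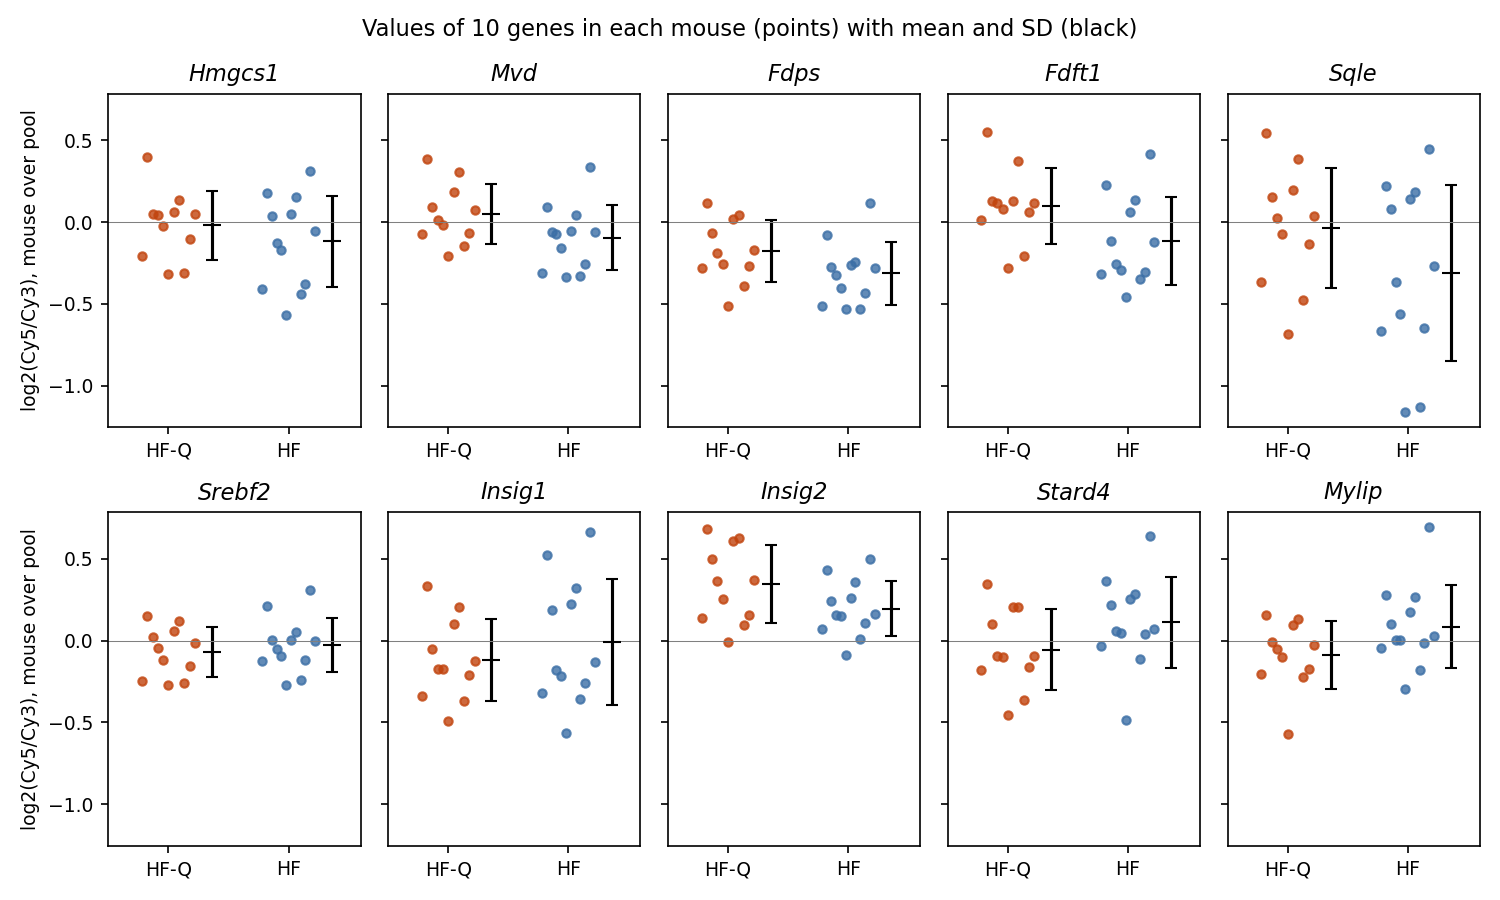
Level of 10 genes, as log2(Cy5/Cy3) of mouse over pool (y axis), in the 11 HF-Q mice (left in each panel) and the 12 HF mice (right). Points are mice, and black bars are the mean and SD. In each of the 10 genes the 2 diets overlap, and Sqle has the widest spread, reaching -1.16 in HF mice.

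The size of these differences was small next to the spread between mice. The SD over the 23 mice had a median of 0.21 over the 27 genes, against 0.16 over all genes, and 20 of the 27 lay above the all-gene value. Sqle varied most (SD 0.47, a percentile of 96.8 among all genes), a span of 3.26-fold between the lowest and the highest mouse. Lbr, Insig1 and Cyp51 followed at 0.37, 0.32 and 0.32. Ebp varied least (SD 0.08, a percentile of 1.77), with a span of 1.25-fold. The Ebp probe was also the brightest of the 27 (mean log2 Cy5 signal 15.65), and whether brightness narrowed its spread was not tested. The mean of the 27 genes in a mouse ran from -0.20 through 0.01 to 0.19 in HF-Q mice, against -0.23, -0.09 and 0.24 in HF mice, so the HF-Q mice lay within the range of the HF mice. The mice at the ends of the enzymes' range were largely the same ones from gene to gene. HF-Q replicate 1 was among the 3 highest mice for 13 of the 20 enzymes and HF-Q replicate 9 for 12, against 14 for HF replicate 2. HF-Q replicate 2 was among the 3 lowest for 5 enzymes, against 11 each for HF replicates 4 and 6 and 7 each for HF replicates 3 and 12.

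A few of these mice weighed on the count at the unadjusted threshold. Without HF replicate 2, 7 of the 27 (Mvk, Mvd, Fdps, Fdft1, Lss, Tm7sf2 and Msmo1) had an unadjusted limma p under 0.05, all higher in HF-Q, with adjusted p of 0.995. Without HF-Q replicate 2 or 3 there were 3 such higher genes, and without HF-Q replicate 11 or HF replicate 11 there were 2, with 1 lower gene in each case. The count of higher genes was 0 without any 1 of 12 other mice, HF-Q replicates 1, 4, 5, 8 and 9 and HF replicates 3, 4, 6, 8, 9, 10 and 12. The share of all genes under that unadjusted p in each refit is not given here. As the genes also moved together over the mice, these counts are not read as a result. The median fold change of the 27 stayed between 0.08 and 0.14 when each mouse was left out in turn, with 19 to 22 genes higher. Centring each array on its median in place of loess gave 24 of 27 higher with a median of 0.20. The same change made 70.2% of all genes higher, against 48.1% with loess, and moved the median of all genes to 0.05.

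Although none of these genes passed the test between diets, their levels followed each other from mouse to mouse. Over the 351 pairs of the 27 genes, Pearson's r across the 23 mice had a median of 0.31, and 32.5% of pairs exceeded 0.5. Over all pairs of genes on the array the median was -0.006 and 5.86% exceeded 0.5. With the means of diet and slide removed, the medians were 0.34 for these pairs and -0.005 for all pairs. By 2-sided permutation of mice (100000 resamples, Benjamini-Hochberg over the 351 pairs, a test added after seeing the data), 117 pairs were positive and 7 negative at an adjusted p under 0.05. All 117 positive pairs were positive within the HF-Q mice and within the HF mice. They were picked for a positive r over these same mice, so their sign within each diet is not a separate test. All pairs share the same arrays and the same normalization, so they are not independent of each other.

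The 3 closest pairs each joined an enzyme of the mevalonate steps with one of the sterol steps. Mvd and Fdft1 had r = 0.92 (rho = 0.85), Fdps and Lss had r = 0.92 (rho = 0.93), and Idi1 and Sqle had r = 0.91 (rho = 0.86). Each of these had a permutation p of 1e-05 for both measures, the smallest that the resamples can give, and an adjusted p of 1.00e-04 for r and 0.000117 for rho. Without the 2 mice farthest from the median the 3 values of r were 0.88, 0.89 and 0.88. Pairs within the mevalonate enzymes, within the sterol enzymes and between both groups had almost the same median r, at 0.53 each. Pairs of a regulator with a mevalonate enzyme had a median of 0.24 and those with a sterol enzyme 0.36, and pairs of an enzyme with Stard4, Tmem97 or Mylip had medians near 0 (0.0038 for mevalonate and -0.04 for sterol enzymes).

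**Figure D3:**
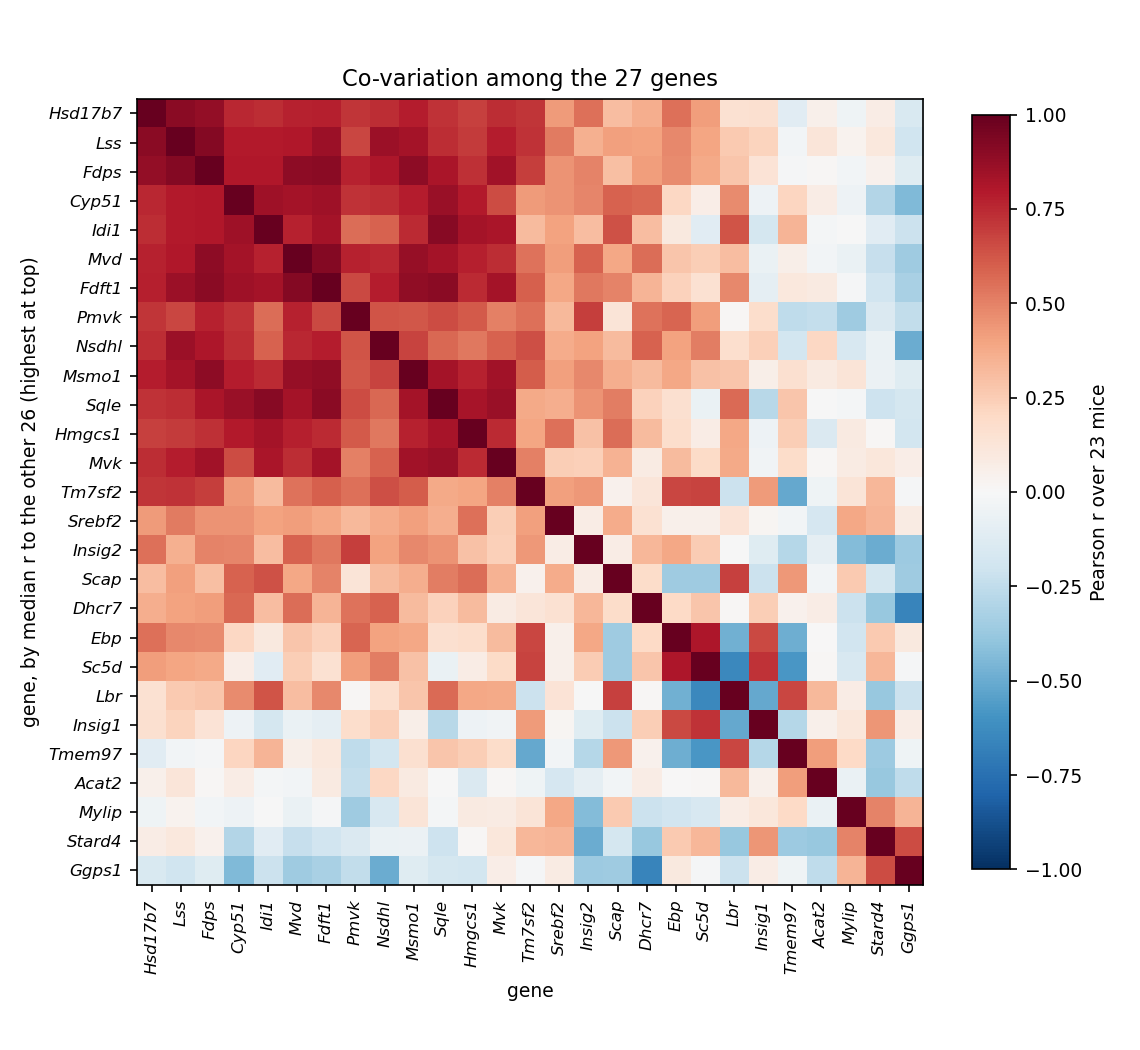
Pearson's r between each pair of the 27 genes over the 23 mice (colour, blue -1 to red 1), ordered by each gene's median r to the other 26, highest at the top. Hsd17b7, Lss and Fdps head a block of 13 enzymes with medians from 0.62 to 0.44, and Ggps1 stands last at -0.18.

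Ranked by median r to the other 26 genes, Hsd17b7 (0.62), Lss (0.59), Fdps (0.59), Cyp51 (0.58) and Idi1 (0.58) stood first. Srebf2 had 0.36, Insig2 0.32 and Scap 0.32. The other 2 probes of Hsd17b7 correlated with the one used at r = 0.84 and 0.13 over the mice. Not all enzymes belonged to that block. Ebp and Sc5d, which act late in the pathway, followed each other (r = 0.81, rho = 0.78, adjusted permutation p = 1.00e-04 and 0.000312), and Sc5d followed Insig1 (r = 0.72, rho = 0.65, adjusted permutation p = 0.000904 and 0.00575). Their median r to all 26 was 0.24 for Ebp, 0.22 for Sc5d and 0.05 for Insig1. Lbr, the reductase of the nuclear envelope, followed Scap (r = 0.68, rho = 0.74, adjusted permutation p = 0.00205 and 0.000862) and Tmem97 (r = 0.67, rho = 0.64, adjusted permutation p = 0.00268 and 0.00533). It ran against Sc5d (r = -0.65, rho = -0.48), for which the adjusted permutation p was 0.00389 by r and 0.06 by rho. The other reductase of the same step, Tm7sf2, had a median r of 0.43. Ggps1 was negatively correlated with 20 of the other 26, most with Dhcr7 (r = -0.66, rho = -0.68, adjusted permutation p = 0.00303 and 0.00287). Its closest partner was Stard4 (r = 0.65, rho = 0.59, adjusted permutation p = 0.0027 and 0.0141), and that r was 0.47 without the 2 mice farthest from the median. The other 2 Ggps1 probes correlated with the one used at r = 0.23 and 0.49 over the mice, so these values rest on 1 probe.

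Set against Hmgcs1 as the anchor, 14 of the other 26 genes correlated with it at an adjusted permutation p under 0.05 over the 26, all positively. Idi1 (r = 0.83, rho = 0.84), Sqle (0.82 and 0.77), Cyp51 (0.80 and 0.74), Mvd (0.78 and 0.70) and Msmo1 (0.77 and 0.71) stood first, with adjusted p of 0.00013 to 0.000195 for r. The others were Fdft1, Mvk, Fdps, Lss, Hsd17b7, Pmvk, Scap, Srebf2 and Nsdhl, the last at r = 0.53 (rho = 0.52, adjusted p = 0.0188 and 0.0232). The count was 12 without the 2 mice farthest from the Hmgcs1 median and 14 with diet and slide means removed. It was 11 within the 11 HF-Q mice and 9 within the 12 HF mice. Insig1 (r = -0.05), Acat2 (r = -0.15) and Ggps1 (r = -0.18) were among the 12 genes that did not pass.

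The transcript of the factor itself followed the enzymes less closely. As the anchor, Srebf2 correlated positively with 24 of the other 26 genes at a median r of 0.36. None passed an adjusted permutation p under 0.05 over the 26. The second Srebf2 probe correlated with the one used at r = 0.22 over the mice. The strongest partners of Srebf2 were Hmgcs1 (r = 0.55, rho = 0.55, adjusted p = 0.148 and 0.169) and Lss (r = 0.52, rho = 0.48, adjusted p = 0.148 and 0.169). In the family of 26 with Hmgcs1 as the anchor, the Hmgcs1 and Srebf2 pair had an adjusted p of 0.0137. Over the 351 pairs, the adjusted permutation p of that pair was 0.0224 by r and 0.025 by rho. For Srebf2 with Lss it was 0.0357 by r and 0.06 by rho. The adjustment depends on the other pairs in each family. Whether Srebf2 and Hmgcs1 differ as anchors was not tested. Centring each array on its median raised both counts, to 22 of 26 for Hmgcs1 and 23 of 26 for Srebf2. With that centring all 26 values of r were positive for each anchor. The share of all genes correlated with either anchor under that setting is not given here, so these counts are not read as a result. With Srebf2 as the anchor and adjustment over the 26, the count was 0 for loess, the authors' log2 values and the Cy5 signal alone. The absence of a call thus holds for that family and those settings, and not for median centring or for the 351 pairs.

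**Figure D4:**
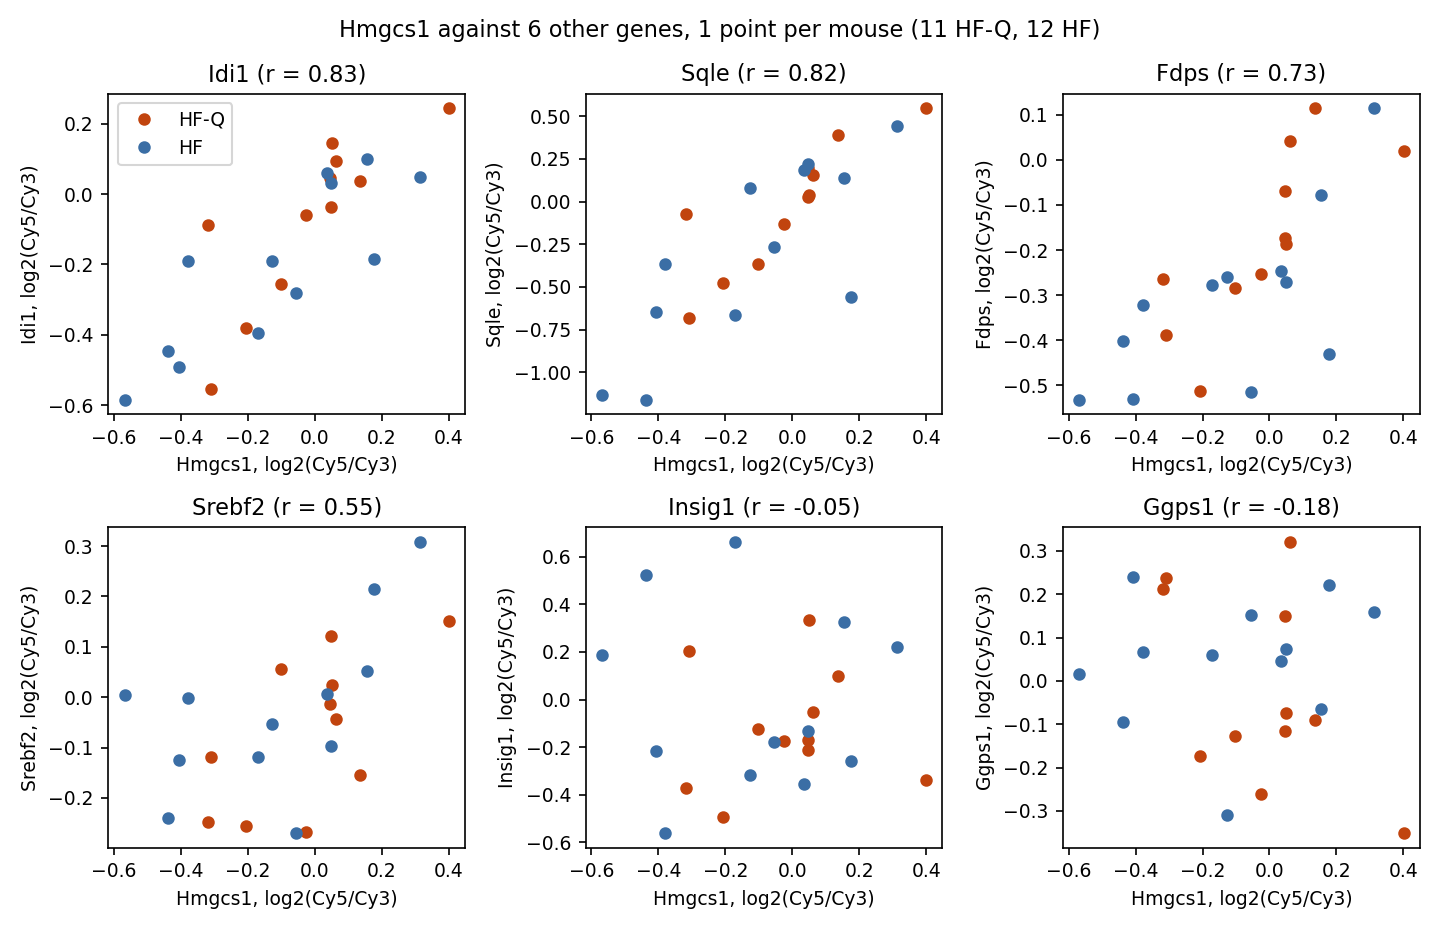
Level of 6 genes (y axes) against that of Hmgcs1 (x axes), both as log2(Cy5/Cy3), with 1 point per mouse, HF-Q in red and HF in blue. Idi1, Sqle and Fdps rise along Hmgcs1 in both diets (r = 0.83, 0.82 and 0.73), Srebf2 less so (0.55), and Insig1 and Ggps1 do not (-0.05 and -0.18).

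Among all 15145 other named genes, ranked by r to Hmgcs1, 5 of the top 20 belonged to the 27 (Idi1, Sqle, Cyp51, Mvd and Msmo1, at ranks 3, 4, 7, 11 and 12), and Lss and Hsd17b7 stood at ranks 45 and 58. The median r to Hmgcs1 over all named genes was 0.04, and 4.06% exceeded 0.5. The 5 nearest genes were Aacs (r = 0.88), which encodes a cytosolic enzyme that activates acetoacetate for lipid synthesis, then Fam83e (0.84), Idi1 (0.83), Sqle (0.82) and Endod1 (0.81). These ranks describe likeness over 23 mice, and no p is attached to them.

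Genes of adjoining pathways showed no diet call either, with adjusted limma p of 0.951 or more, and their medians lay nearer to that of all genes than the enzymes did. In SREBP1 and fatty acid synthesis, 7 of 15 measured genes were higher in HF-Q mice and the median log2 fold change was -0.00205. Me1, the malic enzyme that supplies NADPH for lipid synthesis, had -0.49 ± 0.16 (SE, unadjusted limma p = 0.00548), and Mid1ip1, an activator of acetyl-CoA carboxylase, had 0.07 ± 0.05. In sterol export and LXR, 2 of 7 were higher with a median of -0.03. Its members Abca1 and Abcg5, which export sterol from cells, had -0.25 ± 0.11 (unadjusted limma p = 0.0323) and -0.09 ± 0.08. In sterol storage and transport, 4 of 11 were higher with a median of -0.04. There Gramd1b, a carrier of plasma membrane cholesterol to the endoplasmic reticulum, had -0.36 ± 0.11 (unadjusted limma p = 0.00268), and Scarb1, a lipoprotein receptor, had -0.37 ± 0.17 (unadjusted limma p = 0.0416).

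In the machinery of SREBP cleavage and of INSIG-linked degradation, 6 of 8 measured genes were higher with a median of 0.02. Erlin1, a scaffold of that degradation, had -0.14 ± 0.06 (unadjusted limma p = 0.0328), and the ubiquitin ligase Rnf139 had 0.08 ± 0.05. In the non-sterol isoprenoid branch, 8 of 11 were higher with a median of 0.02. There Fnta, a subunit of protein prenyl transferases, had -0.07 ± 0.04, and Nus1, a subunit of the enzyme of dolichol synthesis, had 0.11 ± 0.07. Pnpla3 and Ubxn4 were listed but not measured above background. Over the mice, the median r to Hmgcs1 was 0.31 for the fatty acid synthesis genes (Acly highest at 0.59, Me1 lowest at -0.44) and 0.16 for the isoprenoid branch. It was -0.12 for sterol export and LXR (Nr1h3 lowest at -0.52), -0.09 for storage and transport (Lipa lowest at -0.64) and -0.09 for SREBP cleavage. For the other 26 genes of the set it was 0.54.

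Of 15 lists of cell type or region markers, 1 followed Hmgcs1 over the mice at an adjusted permutation p under 0.05. The mean of 5 measured goblet cell markers had r = 0.63 (permutation p = 0.00157, adjusted over the 15 lists 0.0236) and rho = 0.57 (permutation p = 0.00544, adjusted 0.0816). Without the 2 mice farthest from the Hmgcs1 median, r was 0.68 (rho = 0.54, adjusted permutation p = 0.0111 and 0.207). With diet and slide means removed, r was 0.68 (rho = 0.63, adjusted permutation p = 0.00645 and 0.0276). Within the HF-Q mice r was 0.43 (rho = 0.32, adjusted permutation p = 0.441 and 0.8085). Within the HF mice r was 0.80 (rho = 0.72, adjusted permutation p = 0.0308 and 0.1635), so there the list passed by r and not by rho. With the authors' deposited log2 values the call was lost (r = 0.58, rho = 0.54, adjusted permutation p = 0.059 and 0.145). The goblet mean ranged from -0.02 to 0.39 in HF-Q mice, against -0.02 to 0.49 in HF mice. Its genes differed: Agr2, a secretory pathway protein, had r = 0.62 (rho = 0.62) with Hmgcs1 and Spink4 had r = 0.52 (rho = 0.32). Clca1 had r = 0.38 (rho = 0.34), Fcgbp 0.14 (0.13) and the goblet peptide Tff3 -0.14 (-0.05). Muc2 was listed among the goblet markers but was not among the genes measured. The next list, B and plasma cells, had r = 0.42 (rho = 0.43, adjusted permutation p = 0.328 and 0.314). Enterocyte markers had r = -0.31 (rho = -0.23, adjusted permutation p = 0.328 and 0.702) and cycling cell markers had r = 0.36 (rho = 0.26, adjusted permutation p = 0.328 and 0.669). The part of cell makeup in the co-variation of the cholesterol genes was not tested.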

How the data were processed

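Small intestine RNA of 11 HF-Q and 12 HF mice was analysed, 1 array each. Per the submitters' processing notes, the scanner software was Agilent Feature Extraction, version 10.7.3.1. The spot and background columns are linear intensity values with no normalization between arrays, per the file headers. The software's log10 ratio of Cy5 over Cy3, deposited in the same files, and the authors' deposited table of processed log2 values served as alternatives. In that log2 table the deviations from gene means correlated with the ratios computed here at 0.863 to 0.961 per array, which gives the direction mouse over pool. Its column medians over probes were 8.97 to 9.02, and how it was centred is not stated in the sources used.

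Values were computed in R 4.3.3 with limma 3.58.1, by normexp background correction (offset 50) and loess within arrays, with 3671 control spots at weight 0 and 260 to 355 outlier spots per array set to missing. Repeated spots were averaged. Probes well above background in Cy5 on 50% or more of the arrays in 1 or both diets were retained (29249 of 55681, 52.5%), and the brightest represented its gene. No value of the 27 genes was missing. Diets were compared by lmFit and eBayes, 2-sided, with no covariate, and p-values were adjusted over 21477 genes by Benjamini-Hochberg at 0.05. Correlations used 100000 permutations. The fit was checked on simulated data.

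Gene names came from RefSeq (GRCm38.p6) through accession for 27235 probes, symbol for 3581 and synonym for 565, and 24300 kept the name in the file. Msmo1 is Sc4mol in the files. Probe positions are mm9, promoters GRCm38.p6, and the builds were not mixed. Exon positions were not analysed here. The 27 genes, the lists and the anchors were chosen with earlier results of these data known. Genes given by lowest, median and highest mouse are Hmgcs1, Srebf2 and, in each role, the 2 with the smallest unadjusted p, together with Cyp51, Lbr, Lss, Nsdhl and Msmo1, which were added after their values were seen. Of each neighbouring list the 2 with the smallest unadjusted p are named, and of the 20 genes nearest to Hmgcs1 the 5 highest. Others named were chosen after their values were seen.

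Replicate numbers appear in both diets. Deviations from the group means correlated at -0.35 to 0.39 over the 11 same-numbered pairs and exceeded 0.1 in 5, and 1 mouse matched its own number best, so the numbers were not taken to pair mice. Alternatives were median centring, the software's ratio, the authors' table, both filters on dim probes, the mean of probes, Cy5 alone after quantile normalization, slide as a block or alone, the replicate block, array weights and each mouse left out.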

Additional observations from a re-analysis of the deposited data

How the results depend on the processing

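No gene passed an adjusted p of 0.05 between diets under any alternative run. The median log2 fold change of the 27 genes was above 0 in each, from 0.04 in slide 1 alone to 0.20 under median centring, and from 0.08 to 0.14 with each mouse left out. With the replicate block it was 0.09, with 21 of 27 genes higher and 0 genes called. Genes correlated with Hmgcs1 numbered 14 of 26, against 22 under median centring and 9 in HF mice alone. Those correlated with Srebf2 as the anchor, adjusted over the 26, numbered 0, against 23 under median centring. The share of all genes correlated with either anchor under median centring is not given here. Marker lists correlated with Hmgcs1 numbered 1, against 2 under median centring, 0 with the authors' log2 values and 0 in HF-Q mice alone. Under median centring the correlation of Hmgcs1 with Acat2 was 0.44 and that of Srebf2 with Tmem97 was 0.45, against -0.15 and -0.03 with loess. The cause was not tested for any of these differences. The diets taken alone also hold fewer mice, 11 for HF-Q and 12 for HF. The opposite signs of second probes limit Lbr, Srebf2, Stard4 and Tmem97. Weak correlation between probes of the same gene limits the co-variation given for Ggps1, Srebf2, Insig2 and Nsdhl. The number of mice limits the precision. Some alternatives (median centring 5 genes, array weights 4) gave more of the 27 an unadjusted p under 0.05 than the 1 given above. The share of all genes under that p in those alternatives is not given here, so these counts are not read as a result.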
